A study of Mus musculus with 4 samples.

Results

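Integrins and tetraspanins are membrane protein families through which a macrophage holds on to matrix and to other cells and arranges its surface. Their genes were taken as the non-control probes whose RefSeq symbol named an integrin alpha or beta subunit gene in the numbered series, Itgad, Itgae, Itgal, Itgam or Itgav, a numbered Tspan gene, or Cd9, Cd37, Cd53, Cd63, Cd81, Cd82 or Cd151, with Itgb3 left out. This gave 51 genes, 24 of integrins and 27 of tetraspanins, among 22911 genes with a RefSeq symbol on the array, read by 75 of its 56605 probes. RNA was measured in primary Kupffer cells, which are macrophages resident in liver, on 4 one-colour Agilent arrays. The cells came from livers of male C57BL/6 mice aged 8 weeks, perfused with type IV collagenase, and the Kupffer cell layer of a Percoll gradient was plated in RPMI with 10% fetal bovine serum. For 24 h in RPMI with 0.1% serum, 2 samples received 200 nM maresin 1 (MaR1), a lipid mediator made from docosahexaenoic acid, and 2 received its solvent, ethanol (Veh). The comparison of MaR1 with Veh addresses which transcripts differ after exposure to the mediator. The labels name no sorting step, and they do not say whether the replicates of a group came from separate mice or cultures. The p-values therefore reflect array-to-array spread alone, and that spread may be technical.

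Every level given here is log2 of the background-subtracted signal minus the 75th percentile of that array, so 0 is the 75th percentile signal. That percentile was 946 and 847 intensity units on the MaR1 arrays and 961 and 988 on the Veh arrays, and the small number of arrays limits the precision. All 4 arrays lay on 1 slide, with each group at neighbouring positions, so position and treatment cannot be told apart. The labelled cell type was checked against 8 Kupffer cell markers, all of which were above background. Levels of Clec4f, a lectin of Kupffer cells, were 6.46 and 6.39 in MaR1 samples and 6.43 and 6.34 in Veh samples. Adgre1, which encodes the macrophage antigen F4/80, was lower in MaR1 samples by 0.67 ± 0.06 (SE of the log2 difference, n = 2 per group, limma adjusted p = 0.00634). Csf1r was higher by 0.30 ± 0.07 (adjusted p = 0.0471), a call that leaving out any single array took away. The other 6 did not pass: Vsig4 (0.26), C1qa (0.13), Clec4f (0.04), Timd4 (-0.09), Cd5l (-0.19) and Marco (-0.19). The summed level of the 8, in multiples of the array's 75th percentile signal, was 870.4 and 863.1 in MaR1 samples and 953.2 and 917.6 in Veh samples.

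An integrin is a pair of 1 alpha and 1 beta subunit, and the pair decides which ligand is bound. Beta2 integrins are leukocyte receptors for ICAMs and complement fragments, alphaV integrins bind ligands that carry an RGD tripeptide, such as vitronectin, and beta1 joins with many alpha subunits to bind collagens, laminins and fibronectin. Talin and kindlin bind the beta tail and switch the pair into its active state, and FAK, Src and Crk family proteins carry the signal inward. Tetraspanins cross the membrane at 4 places and gather integrins, proteases and signalling receptors into microdomains. The TspanC8 subgroup escorts the protease ADAM10 out of the endoplasmic reticulum.

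Of the 51 genes, 43 were tested, and the 2 families split by direction. At an adjusted p under 0.05, with adjustment over all 24067 genes tested, 10 members were higher in MaR1 samples and 10 were lower. Integrins supplied 2 higher and 8 lower calls, and tetraspanins supplied 8 higher and 2 lower calls. Leaving out any single array left 3 to 5 higher and 3 to 5 lower calls, and every higher one was then a tetraspanin and every lower one an integrin. Fewer arrays weaken the test. The 2 higher integrins (Itgb1 0.28, Itgav 0.31) and 2 lower tetraspanins (Cd37 -0.33, Tspan32 -0.43) had small differences, so their loss does not sharpen the split. The signal of 42 of the 43 was above background on every array, and that of Tspan8 on 3 of the 4. In this bulk RNA, fewer cells of a type and less RNA per cell cannot be told apart.

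The calls stand against a broad background, since 24.0% of all genes tested passed in either direction, 11.2% higher and 12.7% lower. Among genes with a RefSeq symbol the shares were 12.9% higher and 11.9% lower. The shares over all genes tested are also the background for the counts in every list of partner or marker genes. Of the members tested, 46.5% passed. Higher calls covered 10.5% of the 19 integrins and 33.3% of the 24 tetraspanins, and lower calls covered 42.1% and 8.33%. The median log2 difference was -0.18 over integrins and 0.11 over tetraspanins, beside -0.02 over all genes tested. On leaving out 1 array the integrin median ranged between -0.28 (without Veh replicate 1) and -0.09 (without Veh replicate 2). The tetraspanin median was 0.17 without MaR1 replicate 1, and 0.04 both under quantile normalization and in the authors' table. Over both families together it was 0.07, which turned to -0.01 under quantile normalization and to -0.002 in the authors' table. Both MaR1 arrays lay above both Veh arrays for 19 members (background 32.7%) and below them for 15 (background 36.8%). By family, both MaR1 arrays lay above both Veh arrays for 5 of 19 integrins and 14 of 24 tetraspanins, and below them for 11 integrins and 4 tetraspanins. These shares describe the families, and no test of a family as a set was made.

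**Figure D1:**
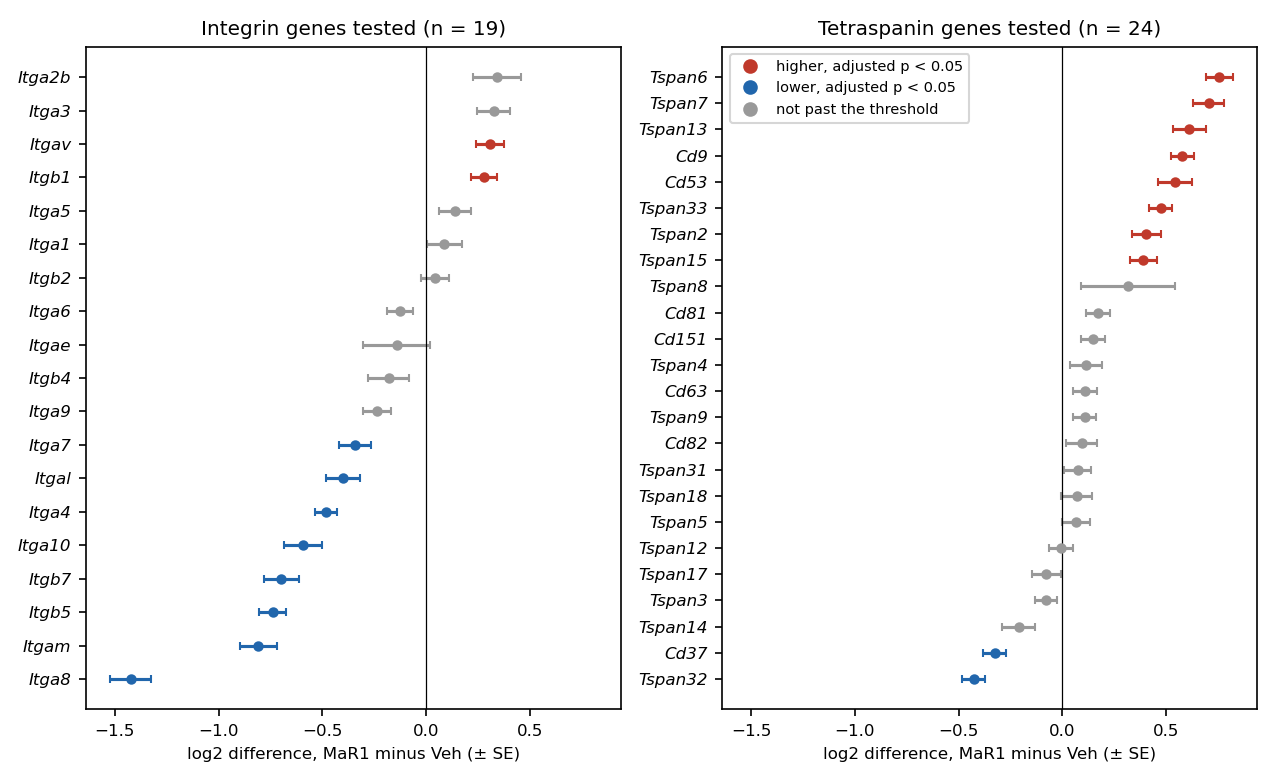
Log2 differences (MaR1 minus Veh) with standard errors for the 19 integrin genes and the 24 tetraspanin genes tested, with colours for the genes that passed an adjusted p of 0.05. Lower calls lie mostly among integrins (8 of 19) and higher calls mostly among tetraspanins (8 of 24), and the integrin of largest fall is Itga8 at -1.42.

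For 6 members the call held whichever of the 4 arrays was left out: Itga8, Itgam and Itgb5, which fell, and Tspan6, Tspan7 and Cd9, which rose. Across all genes tested, 3.34% were called higher and kept under each such omission and 2.49% were called lower and kept. Their promoter windows are shown because they belong to the members with the firmest values, and each runs from 250 bases before to 50 bases after the RefSeq transcription start in build GRCm38.p6. The windows lie at chr2:12301895-12302194 (Itga8, minus strand), chr7:128062390-128062689 (Itgam, plus strand), chr16:33829415-33829714 (Itgb5, plus strand), chrX:133898380-133898679 (Tspan6, minus strand), chrX:10484866-10485165 (Tspan7, plus strand) and chr6:125494711-125495010 (Cd9, minus strand). Capitals mark matches, on either strand, to the core GAGGAA bound by the myeloid factor PU.1, the ROR-type element AGGTCA and the GC box GGGCGG.
Itga8: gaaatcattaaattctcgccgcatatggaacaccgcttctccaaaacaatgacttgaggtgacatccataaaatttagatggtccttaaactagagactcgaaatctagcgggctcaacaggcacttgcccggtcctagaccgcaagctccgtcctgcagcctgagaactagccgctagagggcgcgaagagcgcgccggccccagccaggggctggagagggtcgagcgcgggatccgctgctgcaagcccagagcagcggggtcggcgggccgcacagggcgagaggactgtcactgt
Itgam: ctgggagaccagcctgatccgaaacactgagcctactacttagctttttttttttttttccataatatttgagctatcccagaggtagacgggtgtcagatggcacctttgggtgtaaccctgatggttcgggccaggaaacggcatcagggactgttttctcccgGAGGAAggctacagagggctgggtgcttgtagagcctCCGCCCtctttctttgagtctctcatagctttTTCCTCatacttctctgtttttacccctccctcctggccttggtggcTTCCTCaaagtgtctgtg
Itgb5: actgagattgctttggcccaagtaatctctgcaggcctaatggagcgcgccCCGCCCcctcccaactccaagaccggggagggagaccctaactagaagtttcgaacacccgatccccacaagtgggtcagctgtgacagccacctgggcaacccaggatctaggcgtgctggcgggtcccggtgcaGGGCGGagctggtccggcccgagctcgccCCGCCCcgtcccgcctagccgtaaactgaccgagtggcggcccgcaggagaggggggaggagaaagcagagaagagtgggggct
Tspan6: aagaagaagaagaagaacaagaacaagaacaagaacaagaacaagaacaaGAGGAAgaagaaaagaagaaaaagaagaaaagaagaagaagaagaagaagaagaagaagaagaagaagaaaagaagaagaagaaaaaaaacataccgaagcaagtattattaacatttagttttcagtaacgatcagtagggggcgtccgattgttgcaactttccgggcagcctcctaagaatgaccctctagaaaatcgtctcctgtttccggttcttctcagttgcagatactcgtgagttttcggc
Tspan7: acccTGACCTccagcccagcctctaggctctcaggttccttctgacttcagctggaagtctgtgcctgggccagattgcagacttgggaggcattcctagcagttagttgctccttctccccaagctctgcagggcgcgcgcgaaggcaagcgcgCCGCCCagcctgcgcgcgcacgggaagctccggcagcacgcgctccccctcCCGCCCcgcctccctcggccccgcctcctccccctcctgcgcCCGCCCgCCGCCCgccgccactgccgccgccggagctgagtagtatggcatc
Cd9: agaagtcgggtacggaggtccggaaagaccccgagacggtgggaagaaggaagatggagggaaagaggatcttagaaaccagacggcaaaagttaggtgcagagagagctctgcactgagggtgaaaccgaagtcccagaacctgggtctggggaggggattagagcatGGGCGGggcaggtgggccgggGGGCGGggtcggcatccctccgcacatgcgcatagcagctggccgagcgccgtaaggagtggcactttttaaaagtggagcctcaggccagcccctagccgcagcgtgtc

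The Itgam window held GAGGAA at -84, -15 and 33 bases from the start, the last pair as TTCCTC on the strand shown, and a GC box at -47. At least 3 matches to GAGGAA occurred in 0.685% of all 32851 windows, and Tspan14 was the other member with such a window. The Itgb5 window held GC boxes at -199, -63 and -34, and the Cd9 window at -81 and -60. The Tspan7 window held 4, at -95, -44, -2 and 6, a number reached by 5.49% of all windows, and an AGGTCA match at -246. Tspan9, Tspan14 and Tspan17, which did not pass, also had a window with at least 4 GC boxes. The Tspan6 window held 1 GAGGAA match at -200, inside a run of purines, and the Itga8 window held no match to any motif searched.

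Beyond these windows, 43 of the 51 members had an entry in the RefSeq promoter table, with 55 windows. GAGGAA was in 34.5% of the members' windows and 28.3% of all windows, AGGTCA in 7.27% and 16.3%, and the GC box in 45.5% and 35.7%. The STAT6-type motif, TTC and GAA with 4 free bases between them, was in 5.45% of members' windows and 6.95% of all, and the AP-1-type motif TGANTCA in 7.27% and 7.81%. A window's median GC content was 65.0% for the members called higher (11 windows) and 57.2% for those called lower (8 windows). It was 56.8% for those not called (28 windows) and 52.7% over all windows. In the same order, the median number of CpG dinucleotides was 21, 7, 11 and 7. Letters that match a motif are a description of the sequence and were not set against binding data.

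Among the beta2 leukocyte integrins tested, the alpha subunits Itgam and Itgal fell and the shared beta subunit did not pass. Itgam, which encodes CD11b of complement receptor 3, had levels of -0.14 and -0.33 in MaR1 samples and 0.59 and 0.56 in Veh samples. Both MaR1 arrays lay below both Veh arrays, a log2 difference of -0.81 ± 0.09 (adjusted p = 0.00949), or 0.571 of the Veh level. Itgal, the alpha subunit of LFA-1, which binds ICAM-1, had levels of 0.34 and 0.20 in MaR1 samples and 0.73 and 0.61 in Veh samples. It fell by 0.40 ± 0.08 on the log2 scale (adjusted p = 0.0356), a call that leaving out any single array took away (adjusted p up to 0.137). Itgb2, the beta chain that both need, had levels of 4.59 and 4.54 in MaR1 samples and 4.58 and 4.48 in Veh samples. Its groups overlapped, and the difference of 0.04 ± 0.07 did not pass (adjusted p = 0.672) and turned to -0.07 with quantile normalization. Itgad was not above background on any array.

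Itgam is also a marker of monocytes and neutrophils. Of 6 other markers of these cells tested, 0 were higher by limma's test (also 0 at an unadjusted p under 0.05) and 1 was lower, with a median log2 difference of -0.07. The lower one was Ccr2, the chemokine receptor of inflammatory monocytes, at -0.70 ± 0.06 (adjusted p = 0.00549). The markers' summed level, in multiples of the array's 75th percentile signal, was 121.7 and 111.9 in MaR1 samples and 121.5 and 118.5 in Veh samples, most of it Ly6c2, which did not pass (-0.04 ± 0.07, adjusted p = 0.690). Their part in the fall of Itgam was not tested.

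The alpha4 and beta7 subunits, which pair to bind VCAM-1 and the gut addressin MAdCAM-1, were both lower. Itgb7 had levels of 1.41 and 1.33 in MaR1 samples and 2.15 and 1.98 in Veh samples. The groups stood clear of each other, and the difference was -0.70 ± 0.08 (adjusted p = 0.0118), lost without MaR1 replicate 2 (adjusted p = 0.0608). Itga4 had levels of 1.07 and 1.08 in MaR1 samples and 1.57 and 1.55 in Veh samples. It fell by 0.48 ± 0.05 (adjusted p = 0.0101), and its second probe gave -0.50 ± 0.12 (adjusted p over all kept probes = 0.0505). The call on Itga4 was lost without MaR1 replicate 2, Veh replicate 1 or Veh replicate 2 (adjusted p up to 0.0605). The other subunits of this group did not pass. Itga9, an alpha chain of beta1 integrins that binds tenascin and osteopontin, gave -0.24 ± 0.07 (adjusted p = 0.0709). Itgae, the alphaE chain that joins beta7 to bind E-cadherin, gave -0.14 ± 0.16 (adjusted p = 0.550), with overlapping groups.

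These subunits, with Itgal, are prominent on lymphocytes. Of 7 T and NK cell markers tested, 1 was higher and 3 were lower, with a median log2 difference of -0.22. Cd3g (-0.33), Nkg7 (-0.38) and Ncr1 (-0.34) were the lower ones and Cd8a (1.27) the higher one. The 3 lower calls were lost on leaving out any single array (adjusted p up to 0.120), while that on Cd8a held. The summed level of the list was 10.69 and 10.78 in MaR1 samples and 12.92 and 12.75 in Veh samples, and its part in the lower Itgb7, Itga4 and Itgal was not tested.

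Subunits of RGD-binding integrins moved in opposite directions. Itga8, an alpha chain that joins beta1 and binds nephronectin, had levels of -3.41 and -3.61 in MaR1 samples and -2.16 and -2.02 in Veh samples. The gap between the groups was wider than the spread within either, at -1.42 ± 0.10 (adjusted p = 0.00421), and this was the only member to change by at least 2-fold, with the Veh level 2.68 times that in MaR1 samples. Itgb5, the partner of alphaV in a vitronectin receptor that also takes part in the uptake of apoptotic cells, had levels of 2.93 and 2.85 in MaR1 samples and 3.65 and 3.60 in Veh samples. It fell by 0.74 ± 0.06 (adjusted p = 0.00608), with no overlap between groups.

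Itgav, the alphaV chain itself, had levels of 3.03 and 3.15 in MaR1 samples and 2.78 and 2.80 in Veh samples. It rose by 0.31 ± 0.07 (adjusted p = 0.0426), opposite to its partner Itgb5, a call that leaving out any single array took away (adjusted p up to 0.159), as did quantile normalization and dropping the filter on dim probes. Itga5, the alpha chain of the fibronectin receptor, gave 0.14 ± 0.08 (adjusted p = 0.254). Itga2b, the platelet and megakaryocyte alpha chain, had levels of -4.71 and -4.86 in MaR1 samples and -5.00 and -5.25 in Veh samples and did not pass (0.34 ± 0.12, adjusted p = 0.101). Itgb6 and Itgb8, which join alphaV to activate latent TGF-beta, were not above background on any array.

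In liver, Itga8 is known from stellate cells. Of 5 other stellate cell markers tested, 0 were higher by limma's test (also 0 at an unadjusted p under 0.05) and 2 were lower, with a median log2 difference of -0.38. The lower ones were Dcn (-0.38) and Reln (-0.44), both lost on leaving out any single array (adjusted p up to 0.0890), while Lrat and Des were not above background. The summed level was 38.75 and 37.71 in MaR1 samples and 40.72 and 40.55 in Veh samples, most of it Acta2 (-0.06 ± 0.06, adjusted p = 0.467). Their part in the fall of Itga8 was not tested.

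Collagen-binding and laminin-binding subunits gave 2 lower calls and no higher one among 6 tested by limma. Itga10, a collagen-binding chain, had levels of -2.64 and -2.57 in MaR1 samples and -2.11 and -1.91 in Veh samples. It fell by 0.59 ± 0.09 (adjusted p = 0.0189), lost without either MaR1 array or Veh replicate 2 (adjusted p up to 0.0758). Itga7, a laminin-binding chain best known from muscle, had levels of -3.50 and -3.54 in MaR1 samples and -3.25 and -3.10 in Veh samples. Its fall of 0.34 ± 0.08 only just passed (adjusted p = 0.0427) and was lost on leaving out any single array (adjusted p up to 0.148), under quantile normalization, in the authors' table, with a variance trend and without the filter on dim probes. The collagen-binding Itga1 gave 0.09 ± 0.09 (adjusted p = 0.482), and Itga2 and Itga11 were not above background. The laminin-binding Itga6 gave -0.13 ± 0.06 (adjusted p = 0.208) and Itgb4, the beta chain that joins it in hemidesmosomes, -0.18 ± 0.10 (adjusted p = 0.248).

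Itga3, another laminin-binding chain, could not be given 1 direction. Its brighter probe had levels of -1.11 and -1.27 in MaR1 samples and -1.48 and -1.55 in Veh samples, a difference of 0.33 ± 0.08 (adjusted p = 0.0522). Its other probe had levels of -3.26 and -3.43 in MaR1 samples and -2.79 and -2.81 in Veh samples, a difference of -0.55 ± 0.08 (adjusted p over all kept probes = 0.0165). Each probe separated the groups, in opposite directions, and which transcript either reads was not tested.

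Itgb1, the beta chain shared by most of these alpha subunits, had levels of 4.91 and 4.98 in MaR1 samples and 4.69 and 4.64 in Veh samples. It rose by 0.28 ± 0.06 (adjusted p = 0.0443), a call that leaving out any single array took away (adjusted p up to 0.176), as did quantile normalization, the authors' table and dropping the filter on dim probes. Its other kept probe lay at 3.56 and 3.56 in MaR1 samples and 3.07 and 3.10 in Veh samples, a larger difference of 0.48 ± 0.06 (adjusted p over all kept probes = 0.0106). Both probes were higher on both MaR1 arrays.

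**Figure D2:**
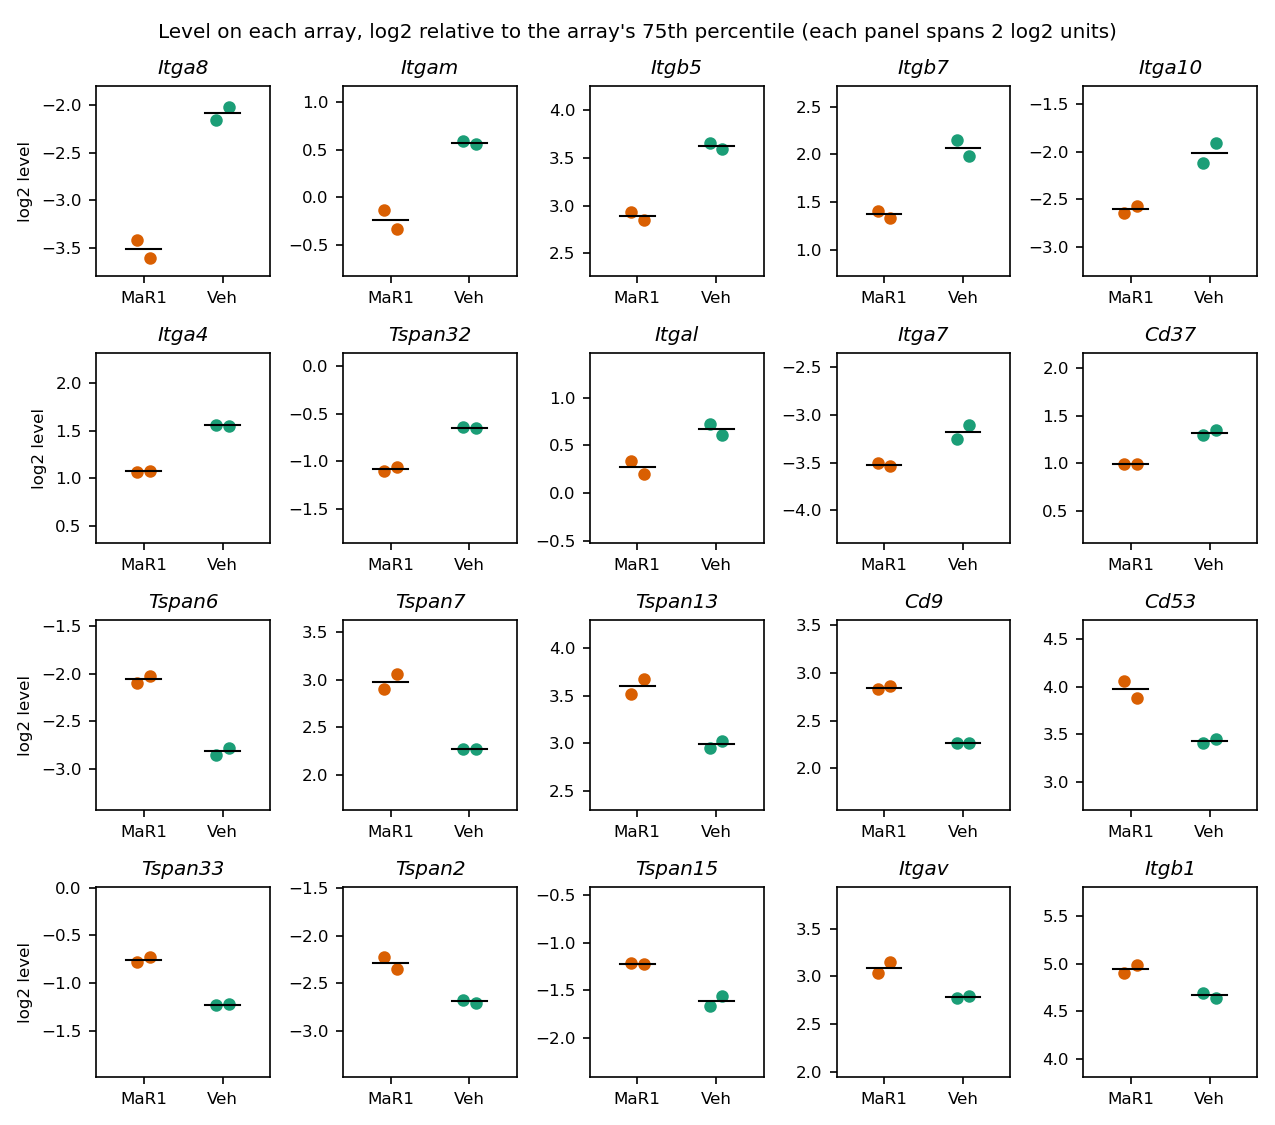
Level on each array (points, in log2 units against that array's 75th percentile) for the 20 members that passed, with the mean of each group as a bar and MaR1 left of Veh; each panel spans the same log2 range. In every panel the 2 MaR1 points lie on 1 side of the 2 Veh points, with the widest gap for Itga8.

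Of the tetraspanins with a CD name, 7 were tested, 2 rose and 1 fell. Cd9, found on many cells and on extracellular vesicles and needed for gamete fusion, had levels of 2.83 and 2.87 in MaR1 samples and 2.27 and 2.27 in Veh samples. The arrays of a group nearly coincided, and the rise was 0.58 ± 0.06 (adjusted p = 0.00738). Cd53, a tetraspanin of leukocytes, had levels of 4.06 and 3.88 in MaR1 samples and 3.41 and 3.46 in Veh samples. It rose by 0.54 ± 0.08 (adjusted p = 0.0190), lost without MaR1 replicate 1, Veh replicate 1 or Veh replicate 2 (adjusted p up to 0.0852). Cd37, another leukocyte tetraspanin and most abundant on B cells, had levels of 0.995 and 0.994 in MaR1 samples and 1.30 and 1.35 in Veh samples. It fell by 0.33 ± 0.06 (adjusted p = 0.0252), and its other probe gave -0.31 ± 0.07 (adjusted p over all kept probes = 0.0419). The call on Cd37 was lost on leaving out any single array (adjusted p up to 0.119) and without the filter on dim probes.

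Of 6 B cell markers tested beside Cd37, 3 were higher in MaR1 samples and 0 were lower by limma's test (also 0 at an unadjusted p under 0.05), with a median log2 difference of 0.55. Among the higher ones, Cd79b gave 0.74 and Ms4a1, which encodes CD20, 1.21. Cd79a (0.44), Fcmr (0.41) and Pax5 (-0.42) did not pass, and the summed level was 4.68 and 4.21 in MaR1 samples and 2.57 and 2.90 in Veh samples. Their part in the Cd37 result was not tested.

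The other CD-named tetraspanins, Cd63, Cd81, Cd151 and Cd82, did not pass. Cd63, which marks late endosomes and exosomes, had levels of 6.98 and 7.02 in MaR1 samples and 6.92 and 6.86 in Veh samples (0.11 ± 0.06, adjusted p = 0.239). Cd81, a receptor for hepatitis C virus in humans, had levels of 6.13 and 6.16 in MaR1 samples and 6.00 and 5.94 in Veh samples (0.17 ± 0.06, adjusted p = 0.106). With quantile normalization the differences of Cd63 and Cd81 were -0.006 and -0.003, while both stayed above 0 with normexp added and in the authors' table. Cd151, which binds laminin-binding integrins tightly, gave 0.15 ± 0.06 (adjusted p = 0.135), and Cd82, known as a metastasis suppressor, 0.09 ± 0.08 (adjusted p = 0.403), negative under 3 other scalings.

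Of the TspanC8 tetraspanins, the escorts of ADAM10, 5 were tested and 2 rose. Tspan33 had levels of -0.78 and -0.73 in MaR1 samples and -1.24 and -1.22 in Veh samples. The rise was 0.47 ± 0.06 (adjusted p = 0.0116), lost without MaR1 replicate 2, Veh replicate 1 or Veh replicate 2 (adjusted p up to 0.0656). Tspan15, the member tied to cleavage of N-cadherin by ADAM10, had levels of -1.21 and -1.23 in MaR1 samples and -1.66 and -1.56 in Veh samples. It rose by 0.39 ± 0.07 (adjusted p = 0.0234), lost on leaving out any single array (adjusted p up to 0.103) and without the filter on dim probes. Tspan14 (-0.21 ± 0.08, adjusted p = 0.132), Tspan17 (-0.08 ± 0.07, adjusted p = 0.451) and Tspan5 (0.07 ± 0.07, adjusted p = 0.512) did not pass, and Tspan10 was not above background. The cargo, Adam10, gave -0.06 and did not pass.

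Of the other Tspan genes 12 were tested, 4 rose and 1 fell. Tspan6 had levels of -2.10 and -2.02 in MaR1 samples and -2.85 and -2.78 in Veh samples. This was the largest rise among the members, 0.76 ± 0.06 or 1.69-fold (adjusted p = 0.00595). Tspan7, whose human counterpart is an X-linked gene of intellectual disability, had levels of 2.90 and 3.06 in MaR1 samples and 2.28 and 2.27 in Veh samples. It rose by 0.71 ± 0.08, or 1.63-fold (adjusted p = 0.00927). Tspan6 and Tspan7 are both X-linked genes, and both groups of arrays were of cells from male mice.

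Tspan13 had levels of 3.52 and 3.68 in MaR1 samples and 2.95 and 3.03 in Veh samples. It rose by 0.61 ± 0.08 (adjusted p = 0.0140), lost without MaR1 replicate 2, Veh replicate 1 or Veh replicate 2 (adjusted p up to 0.0672). Tspan2, best known from oligodendrocytes, had levels of -2.22 and -2.35 in MaR1 samples and -2.67 and -2.70 in Veh samples. It rose by 0.40 ± 0.07 (adjusted p = 0.0246), lost on leaving out any single array (adjusted p up to 0.104).

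Tspan32, a tetraspanin of blood cells also known as Tssc6, was the Tspan gene that fell. Its levels were -1.10 and -1.05 in MaR1 samples and -0.64 and -0.65 in Veh samples, a difference of -0.43 ± 0.06 (adjusted p = 0.0139), lost on leaving out any single array (adjusted p up to 0.0754). Its 3 other kept probes gave -0.26, -0.38 and -0.35, the same direction. Tspan3 (-0.08), Tspan4 (0.11), Tspan9 (0.11), Tspan12 (-0.01), Tspan18 (0.07) and Tspan31 (0.07) did not pass. Tspan8, an epithelial tetraspanin, had levels of -5.19 and -4.92 in MaR1 samples and -5.66 and -5.08 in Veh samples (0.32 ± 0.23, adjusted p = 0.351), and its groups overlapped. Tspan1 and Tspan11 were not above background on any array.

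Endothelial cells of the liver sinusoid also carry tetraspanins and alphaV and beta1 integrins. Of 8 markers of these cells, 4 were higher in MaR1 samples and 0 were lower by limma's test (2 at an unadjusted p under 0.05), with a median log2 difference of 0.27. Pecam1 gave 1.15 ± 0.06, Stab2 0.47 ± 0.07, Fcgr2b 0.38 ± 0.07 and Cdh5 0.34 ± 0.08. Of the others, Oit3 gave 0.20, Lyve1 -0.16, Clec4g -0.18 and Kdr, with no value on Veh replicate 1, -0.32. The call on Pecam1 held whichever array was left out, Stab2 was lost without MaR1 replicate 2 or either Veh array, and Fcgr2b and Cdh5 were lost without any single array (adjusted p up to 0.169). The summed level of the list without Kdr was 95.5 and 96.6 in MaR1 samples and 76.3 and 80.5 in Veh samples. Of 7 dendritic cell markers tested, 5 were higher and 0 lower (2 at an unadjusted p under 0.05 by limma), with a median of 0.47. Their summed level was 66.7 and 66.4 in MaR1 samples and 49.1 and 45.7 in Veh samples, while Xcr1 was not above background. Most of the rise in this sum was Batf3, at 4.59 and 4.65 in MaR1 samples and 2.73 and 2.74 in Veh samples (1.89 ± 0.06, limma adjusted p = 0.0015). Of the 5 higher calls, Clec9a and Batf3 held whichever array was left out, Cd209a was lost without either MaR1 array, and Zbtb46 and Ccr7 without any single array (adjusted p up to 0.116). Flt3 and Siglech, the other dendritic cell markers tested, gave -0.28 each and did not pass. The part of either cell type in the higher tetraspanins, Itgav and Itgb1 was not tested.

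For platelets, the source most often named for Itga2b, Gp9, Gp1ba and Gp5 were not above background. Of 5 platelet and megakaryocyte markers tested, 1 was higher and 1 was lower, with a median of 0.08 and a summed level of 99.1 and 102.3 in MaR1 samples and 83.4 and 85.5 in Veh samples. Clec1b made up most of the sum, at levels of 6.36 and 6.44 in MaR1 samples and 6.09 and 6.16 in Veh samples. These levels were near those of the Kupffer cell marker Clec4f, and which cells the Clec1b signal came from was not tested. Clec1b was the higher one (0.28 ± 0.06, limma adjusted p = 0.0474), a call that leaving out any single array took away. Pf4, which encodes platelet factor 4, made up most of the rest, at 4.05 and 3.93 in MaR1 samples and 3.90 and 3.79 in Veh samples. The lower one was Gp6, at levels of -5.46 and -5.26 in MaR1 samples and -4.12 and -4.36 in Veh samples (-1.125 ± 0.12, limma adjusted p = 0.00917). Hepatocyte markers gave 0 higher (also 0 at an unadjusted p under 0.05) and 2 lower of 7 by limma's test (median -0.27, with Cps1 below background), and cholangiocyte markers 1 higher and 0 lower (1 at an unadjusted p under 0.05) of 7 (median 0.35, with Tff3 below background).

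Several probes of a gene could be compared for 14 members. The sign was the same at every kept probe for 11 of them, and no member had opposite calls that both passed at the gene and probe level. Besides Itga3, the exceptions were Itga1, whose dimmer probe gave -0.22 ± 0.11, and Tspan18, whose dimmer probe gave -0.03 ± 0.13, and neither passed. Tspan9 did not pass at its brighter probe but did at the other, which had levels of -1.30 and -1.09 in MaR1 samples and -1.70 and -1.77 in Veh samples (0.54 ± 0.09, adjusted p over all kept probes = 0.0242). Cd81 had a second probe at 0.30 ± 0.07. Of the 61 member probes kept, 12 were called higher and 12 lower.

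The proteins that switch integrins on and tie them to actin moved both ways. Of 26 activators and adaptors tested, 5 rose (19.2%, beside 11.2% of all genes) and 5 fell (19.2%, beside 12.7%). The median log2 difference was -0.02 (-0.07 to -0.09 under the 3 other scalings). Fyb, the adaptor ADAP of integrin activation in haematopoietic cells, had levels of 4.21 and 4.10 in MaR1 samples and 5.38 and 5.45 in Veh samples, a fall of 1.26 ± 0.07 (adjusted p = 0.00298). Apbb1ip, which encodes RIAM and brings talin to the membrane through Rap1, had levels of 2.87 and 2.90 in MaR1 samples and 3.59 and 3.66 in Veh samples, a fall of 0.74 ± 0.06 (adjusted p = 0.00566). Fyb and RIAM are binding partners, and theirs were the 2 calls of this list that held whichever array was left out. Flna, the actin crosslinker filamin A, gave -0.50 ± 0.06 (adjusted p = 0.0132), and Rasgrp2, the Rap1 exchange factor CalDAG-GEFI, -0.39 ± 0.06 (adjusted p = 0.0174). The tensins, which bind beta tails in fibrillar adhesions, rose, with Tns3 at 0.67 ± 0.09 (adjusted p = 0.0137) and Tns1 at 0.41 ± 0.06 (adjusted p = 0.0165). The calls on Rasgrp2 and Tns1 were lost on leaving out any single array, that on Flna without MaR1 replicate 2 or either Veh array, and that on Tns3 without either MaR1 array (adjusted p up to 0.0908). These omissions left 0 to 2 higher and 2 to 3 lower calls in the list. The even split of 5 and 5 also changed with the scaling. It was 3 higher and 7 lower with quantile normalization, 5 and 11 with normexp added, and 4 and 7 in the authors' table.

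Among 24 kinases and effectors downstream of integrins, 5 rose (20.8%, beside 11.2% of all genes) and 4 fell (16.7%, beside 12.7%). The median log2 difference was 0.05. The sign of this median was not stable, at -0.06 under quantile normalization, -0.09 with normexp added, -0.04 in the authors' table, -0.01 with the mean of a gene's probes and 0.002 without MaR1 replicate 1. Bcar1, the scaffold p130Cas, had levels of 2.45 and 2.46 in MaR1 samples and 1.76 and 1.78 in Veh samples, a rise of 0.68 ± 0.05 (adjusted p = 0.00545). Vav3, a guanine nucleotide exchange factor, had levels of 3.37 and 3.44 in MaR1 samples and 2.79 and 2.73 in Veh samples, a rise of 0.65 ± 0.06 (adjusted p = 0.00725). Elmo1, which works with Dock1 to activate Rac, fell by 0.75 ± 0.08 (adjusted p = 0.00828), while Dock1 rose by 0.45 ± 0.07 (adjusted p = 0.0223). The calls on Bcar1, Vav3 and Elmo1 held whichever array was left out. Src rose by 0.52 ± 0.06 (adjusted p = 0.0102) and Fyn by 0.46 ± 0.06 (adjusted p = 0.0156), but Src was lost without either Veh array, Fyn without MaR1 replicate 2 or either Veh array, and Dock1 without any single array (adjusted p up to 0.0869). These omissions left 2 to 4 higher calls and 1 lower call in the list.

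Of 26 ligands and counter-receptors tested, 6 rose (23.1%, beside 11.2% of all genes) and 1 fell (3.85%, beside 12.7%). The median log2 difference was 0.14. Thbs1, which encodes thrombospondin-1, a ligand of alphaV integrins, CD36 and CD47, had levels of 2.38 and 2.53 in MaR1 samples and 1.44 and 1.44 in Veh samples, a rise of 1.01 ± 0.07 (adjusted p = 0.00473). Lama4, a laminin chain of vessel walls, had levels of -1.21 and -1.04 in MaR1 samples and -2.06 and -2.04 in Veh samples, a rise of 0.92 ± 0.08 (adjusted p = 0.00616). Both calls held whichever array was left out. Lama5, another laminin alpha chain, fell by 0.52 ± 0.06 (adjusted p = 0.0109). Fn1 (fibronectin, 0.63 ± 0.09), Vwf (von Willebrand factor, 0.48 ± 0.06) and Cd47 (0.36 ± 0.06) rose. The calls on Vwf and Cd47 were lost on leaving out any single array, and those on Fn1 and Lama5 without MaR1 replicate 2 or either Veh array (adjusted p up to 0.0997). These omissions left 2 to 4 higher calls and 0 to 1 lower call in the list. Fn1, Vwf and Lama4 are also made by endothelial cells, whose marker levels are given above.

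Of 14 tetraspanin partner proteins tested, 4 rose (28.6%, beside 11.2% of all genes) and 3 fell (21.4%, beside 12.7%). The median log2 difference was -0.02 (-0.06 to -0.11 under the 3 other scalings, and 0.05 with the mean of a gene's probes). Cd44, the hyaluronan receptor, gave 0.54 ± 0.06 (adjusted p = 0.00971) and Cd36, a scavenger receptor that associates with CD9, 0.32 ± 0.06 (adjusted p = 0.0265). Adam17, the TNF-converting protease that CD9 binds, fell by 0.35 ± 0.05 (adjusted p = 0.0194) and Notch2, an ADAM10 substrate, by 0.44 ± 0.07 (adjusted p = 0.0211). Cd4, the co-receptor of helper T cells, also fell, by 0.36 ± 0.07 (adjusted p = 0.0295). Cd44 was lost without MaR1 replicate 2 or Veh replicate 1, and Cd36, Adam17, Notch2 and Cd4 were lost without any single array (adjusted p up to 0.125). These omissions left 0 to 2 higher calls and 0 lower calls by limma's test.

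**Figure D3:**
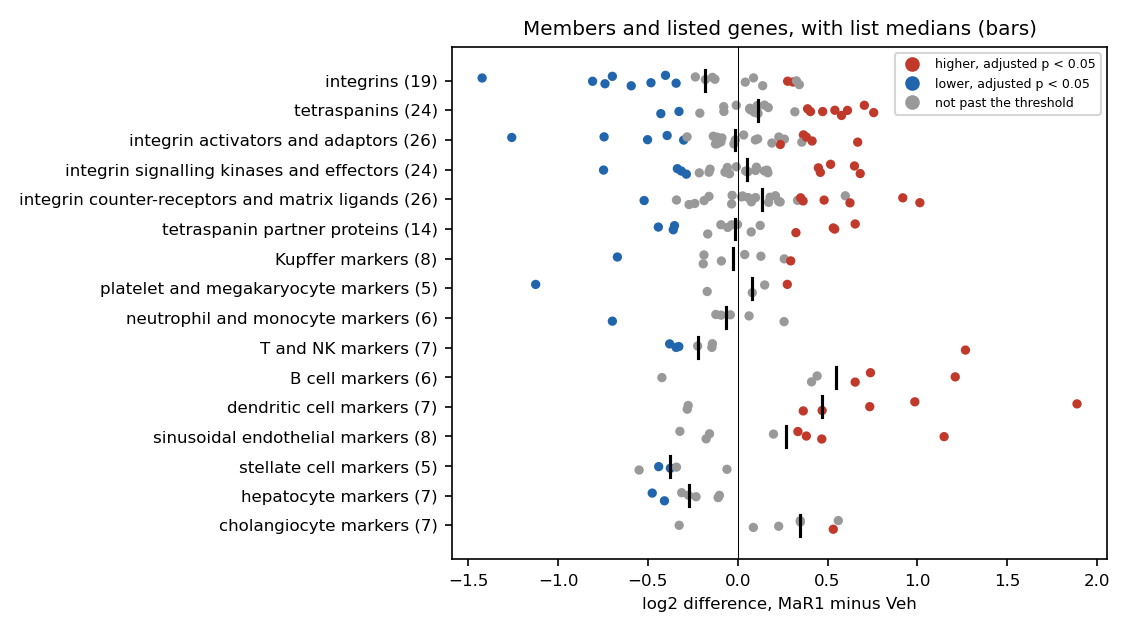
Log2 differences (MaR1 minus Veh, points) of the tested genes in both families, in 4 lists of partner proteins and in 10 lists of cell markers, with the number tested in brackets, the median as a bar and colours for genes that passed an adjusted p of 0.05. Integrins lean to the left of 0 (median -0.18, and -0.28 to -0.09 on leaving out 1 array), tetraspanins to the right (median 0.11, and 0.04 under quantile normalization), and sinusoidal endothelial, dendritic and B cell markers lie mostly to the right.

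All 20 called members kept their direction in each of 12 alternative settings, which changed the scaling, the filter, the choice of probe, the variance model, the pairing or the arrays included. The members called in every one of them were 5: Itga8, Itgb5, Cd9, Tspan7 and Tspan6. Itgam missed this set because its call was lost without the filter on dim probes. Without that filter 12 of the 20 calls were lost, those on Itgam, Itgb7, Itga10, Itgal, Itga7, Itgb1, Itgav, Cd37, Tspan15, Tspan2, Cd53 and Tspan13.

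**Figure D4:**
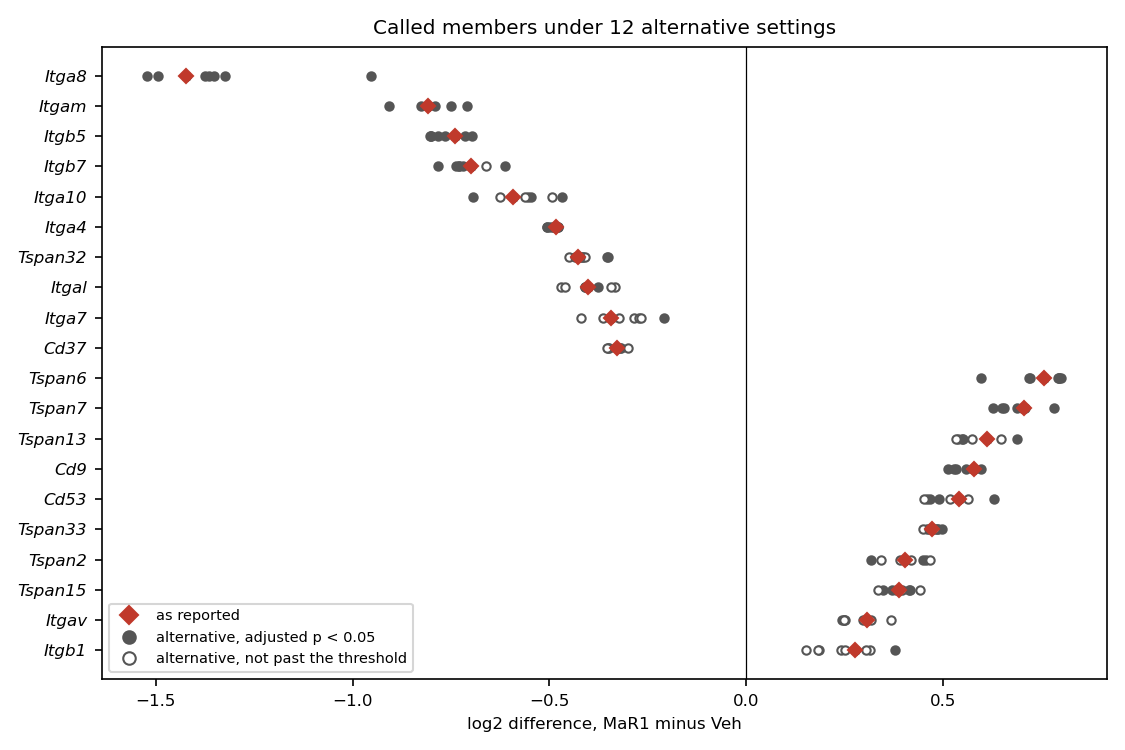
Log2 difference (MaR1 minus Veh) of the 20 called members as reported (diamonds) and under 12 alternative settings (circles, filled where the adjusted p was under 0.05). No circle crosses 0, and only Itga8, Itgb5, Cd9, Tspan7 and Tspan6 have filled circles throughout.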

How the data were processed

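Total RNA of 4 Kupffer cell samples carried Cy3 dye on one-colour Agilent arrays. The authors obtained linear intensity values, background-subtracted within each array, from Agilent Feature Extraction 11.0.1.1, per the submitters' processing notes and the file headers. The deposited value table holds log2 values of probes well above background. Its scale was found from the values, with each column's median at 9.07, and it served only as an alternative.

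Each processed signal was taken to log2 and scaled by subtracting the 75th percentile of its array, computed without control spots. Control and outlier-marked spots were left out, and repeated spots of a probe were averaged. A filter kept 31128 probes that exceeded background clearly on both MaR1 or both Veh arrays, and the brightest kept probe stood for its gene. Symbols came from the RefSeq table of assembly GRCm38.p6, which named 58.3% of probes. limma 3.58.1 in R 4.3.3 (lmFit and eBayes, two-sided, Benjamini-Hochberg over 24067 genes, threshold 0.05) gave differences of MaR1 minus Veh, and the procedure was tested on simulated data. Errors after ± are standard errors of these differences (n = 2 per group). Members with a call, members named by role and, in each partner list, the 6 genes of smallest adjusted p were named by rule. So were all Kupffer markers and the brightest marker in most lists of other cells. Some marker genes past the threshold were named after their values were seen. A listed gene that passed is not reported here by name. Promoter windows were printed for members whose call held whichever array was left out. Members and lists were chosen with earlier results of these data known.

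The alternatives were quantile normalization, normexp background correction of the median signal (offset 50) with quantile normalization, the authors' table, no filter, a filter on all 4 arrays, the mean of a gene's probes, a variance trend, the replicate number as a block and leaving out each array.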

Additional observations from a re-analysis of the deposited data

How the results depend on the processing

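As reported, 10 members were called higher and 10 lower. With no filter on dim probes, when more genes were tested, 4 were called higher and 4 lower, all of them among those reported. Leaving out 1 array in turn left 3 to 5 called higher and 3 to 5 called lower, again all among those reported. Over all genes, counts under these omissions were also below those reported. The labels do not say what the replicate numbers mark. Deviations of same-numbered samples from their group means had a correlation of -0.0292, so little was shared. This cannot tell whether such samples came from 1 preparation. With the replicate block 7 were called higher and 8 lower. The calls lost under the block were Itga7, Itgb1, Itgav, Cd37 and Tspan15, which left 0 integrins higher by limma's test, and 1 of 4 lower calls remained among the kinases and effectors. Among tetraspanin partner proteins 1 of 4 higher and 0 of 3 lower calls remained by limma's test, and among activators and adaptors 3 of 5 higher calls. The other settings gave 9 to 13 higher and 9 to 13 lower.

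Directions that turned round belonged to genes that did not pass as reported. With quantile normalization they were Cd63 (-0.006), Cd81 (-0.003), Cd82 (-0.020), Itgb2 (-0.072), Tspan31 (-0.002), Tspan4 (-0.046), Clec4f (-0.116) and C1qa (-0.057). With normexp and quantile normalization they were Cd82 (-0.050), Itgb2 (-0.093), Tspan4 (-0.052), Clec4f (-0.118) and C1qa (-0.057). In the authors' value table they were Cd82 (-0.005), Itgb2 (-0.055), Tspan4 (-0.010), Clec4f (-0.077) and C1qa (-0.025). With the mean of a gene's probes they were Itga1 (-0.065) and Itga3 (-0.110), and with the other probe Itga1 (-0.218), Itga3 (-0.548) and Tspan18 (-0.034). With 1 array left out, the range was -0.008 to 0.184 for Itga1, -0.356 to 0.074 for Itgae, -0.009 to 0.093 for Itgb2, -0.036 to 0.019 for Tspan12, -0.006 to 0.084 for Clec4f and -0.102 to 0.020 for Ly6c2. The cause was not tested. For dim members such as Itgae, Itga2b and Tspan8, signal near background limits the precision.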

Other observations

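Some members lie beside each other in the RefSeq order of protein-coding genes, and neighbours need not share a call. Tspan32 and Cd81 are adjacent on chromosome 7, and Tspan32 fell (-0.43 ± 0.06) while Cd81 did not pass (0.17 ± 0.06). Itgam and Itgad lie on chromosome 7 with 1 protein-coding gene between them, and Itgam fell while Itgad was not above background on any array. Itga7, which fell, and Cd63, which did not pass, lie on chromosome 10 with 2 protein-coding genes between them.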
